A study of Bos taurus with 9 samples.

Results

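H3K9me3 was profiled by chromatin immunoprecipitation sequencing (ChIP-seq) with and without butyrate in MDBK, an established line of epithelial cells from bovine kidney. The members described here are all peaks of both H3K9me3 lists, 25628 from control cells and 89487 from cells given butyrate. Together they make up 115115 of the 673926 peaks in the 8 lists of the series, and no peak was left out. Control cells were untreated, and treated cells received 5 mM butyrate for 24 h. The antibody is labelled a mouse monoclonal to H3K9me3 from Abcam in both, and both carry the breed label Hostein. Each condition had 1 library, so no difference had a replicate check and no test was run. Intervals given here are exact 95% intervals unless named otherwise and cover counting error only, since neighbouring peaks are not independent. Control libraries were sequenced on lane 4 and butyrate libraries on lane 5, so lane and treatment cannot be told apart. The lists give positions without heights and do not hold read depth, which was not used here, and a list grows with depth.

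Trimethylation of lysine 9 of histone H3 is the classical mark of constitutive heterochromatin. It is written by SUV39H and SETDB1 methyltransferases and bound by HP1 proteins, which in turn recruit more methyltransferase, so the mark can spread along the fibre into domains. It is known for its presence on satellite repeats, on silenced retrotransposons and over clusters of KRAB zinc finger genes. Butyrate, a product of microbial fermentation in the rumen, inhibits histone deacetylases. Acetylation of lysine 9 (H3K9ac) or of lysine 27 (H3K27ac) marks active promoters and enhancers. An acetyl group and a methyl group cannot sit on the same lysine 9 at the same time, whereas lysine 27 is a different residue.

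The first comparison asked how H3K9me3 peaks were spaced along the chromosomes. Butyrate peaks lay closer together than control peaks. The median gap between neighbouring peaks was 42.8 kb (41.6 to 43.9) in control and 12.3 kb (12.2 to 12.5) after butyrate. Gaps under 1 kb made up 3.97% of control gaps (3.73 to 4.21) and 12.8% of butyrate gaps (12.6 to 13.0). Long empty stretches became rarer. Gaps of 100 kb or more were 28.6% of gaps in control (28.1 to 29.2) and 6.08% after butyrate (5.92 to 6.24), and the largest gap shrank from 14.2 Mb to 2.92 Mb.

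Peaks were joined into a domain where the gap between them was under 5 kb. A domain of 2 or more peaks is called a multi-peak domain, and the peaks in it are called clustered. The joining distance cuts through a smooth range of gaps, with 490 control gaps of 4 to 5 kb and 446 of 5 to 6 kb, against 3060 and 2771 after butyrate. Control peaks formed 22286 domains, of which 2655 were multi-peak (2555 to 2758). Butyrate peaks formed 60911 domains, of which 16651 were multi-peak (16399 to 16906). The log2 ratio of multi-peak domain number was 2.65 (2.59 to 2.71). The clustered share of peaks rose from 23.4% (22.9 to 23.9) to 50.5% (50.2 to 50.9), a difference of 27.1 percentage points (95% Newcombe interval, 26.5 to 27.7).

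These figures depend on how many peaks the list holds, since a longer list of the same layout has shorter gaps. With the joining distance of the butyrate list shortened to 1.43 kb, in proportion to its number of peaks, 27.4% of its peaks were clustered. When the butyrate list was cut to the control number by keeping the longest peaks, 32.3% were clustered. When it was instead thinned evenly along the genome to that number, 4.22% were clustered, below the control share. Even thinning takes out neighbours by construction. The difference in clustering thus ranged from -19.2 to 8.88 percentage points at equal number, and how far clustering changed beyond the growth of the list cannot be told from positions alone.

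Between the lists, domain spans differed in their tail more than in their middle. The median span of a multi-peak domain, from its first to its last base, was 2.97 kb (2.87 to 3.06) in control and 3.19 kb (3.13 to 3.25) after butyrate, a log2 ratio of 0.10. With the list cut to its longest peaks the median fell to 2.84 kb, and with the shortened joining distance to 1.32 kb, so that the direction turned under both. The 99th percentile of span was 10.9 kb in control and 15.8 kb after butyrate. Domains of at least 10 kb numbered 41 in control and 724 after butyrate, each count with 1 mitochondrial domain. The control list held no domain of 10 or more peaks, and its largest counts were 12 domains of 6 peaks and 5 domains of 7. The butyrate list held 125 domains of 10 or more peaks (104 to 149), up to 29 peaks in 1 domain. These tail values were not recomputed at equal peak number or with the shortened joining distance. Peaks filled 17.8% of the span of multi-peak domains in control and 20.1% after butyrate, so most of a domain was gap in both lists.

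**Figure D1:**
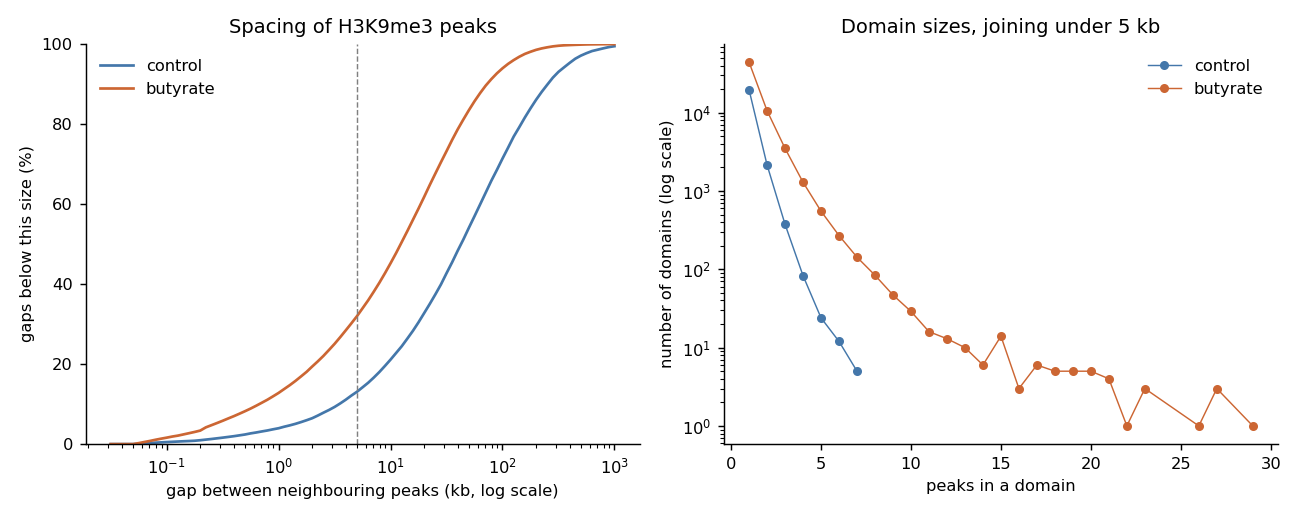
Left, share of gaps between neighbouring H3K9me3 peaks (%) below a given size (kb, log scale) in the control and butyrate lists, with the 5 kb joining distance dashed; right, number of domains (log scale) by the number of peaks in them. The butyrate curve lies to the left of control at the sizes plotted above 0.1 kb, and the control domains stop at 7 peaks where butyrate domains reach 29.

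The spacing of the other lists set a scale for these values. H3K9ac was clustered at 81.5% in control and 81.4% after butyrate, although its list also grew, from 74125 to 115114 peaks. H3K27ac went from 80.7% to 92.7%. RNA polymerase II (Pol II) went from 34.6% to 46.4% while its list shrank from 56240 to 31240 peaks. H3K9me3 thus had the lowest clustered share of the 4 antibodies in control, and after butyrate it stood between Pol II and H3K9ac. Its control list was also the shortest, with 25628 peaks, and after butyrate the order of shares followed that of list length. The gap between single peaks and clusters was also visible in length. Clustered peaks were slightly longer than single ones in both lists, with medians of 226 bp (225 to 229) against 216 bp (215 to 217) in control and 242 bp (241 to 243) against 223 bp (223 to 224) after butyrate.

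Most butyrate multi-peak domains met no control peak, and this held more strongly for the butyrate list as a whole. The share that met one was 13.6% of multi-peak domains, 6.04% of all domains with single peaks included, and 4.62% of all peaks. Of the 16651 butyrate multi-peak domains, 86.4% (85.9 to 87.0) touched no control H3K9me3 peak, 11.5% touched 1 and 2.08% touched 2 or more. Counting control peaks anywhere within the span, gaps included, left 82.1% (81.5 to 82.6) without one. The large domains differed from this. A control peak was met by 8.71% of butyrate domains of 2 peaks, 17.6% of those of 3 to 4, 36.3% of those of 5 to 9 and 70.4% of those of 10 or more (61.6 to 78.2). A domain with more peaks offers more places to meet one, but the share per peak rose as well. It was 3.21% (3.05 to 3.38) of single butyrate peaks and 9.65% (8.33 to 11.1) of peaks in domains of 10 or more. Chromosomes 5 and 14 held 24 and 8 of the 125 domains of 10 or more peaks. Control H3K9me3 had 34.4 and 31.4 peaks per Mb there, against 5.63 to 14.2 on the other autosomes. The rise per peak was not computed without these chromosomes.

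Seen from control, clustered peaks were found again more often than single ones. Of the 2655 control multi-peak domains, 1034 or 38.9% (37.1 to 40.8) were met by a butyrate peak, 737 of them by a multi-peak domain and 297 by single peaks. The other 1621 were met by none. The share was 34.2% for control domains of 2 peaks, 58.0% for 3 to 4 and 78.0% (62.4 to 89.4) for 5 to 9. Per peak it was 13.9% (13.4 to 14.4) of single control peaks and 23.4% (22.3 to 24.5) of clustered ones. Chromosomes 5 and 14 held 817 and 478 of the control multi-peak domains. Butyrate peaks were denser there, with 67.0 and 71.5 per Mb against 26.6 to 51.2 on the other autosomes. The shares per peak were not computed without these chromosomes. When butyrate peaks had to cover at least 50% of the bases in a domain's peaks, 10.8% of control multi-peak domains (9.62 to 12.0) were still met, so most meetings were partial.

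Where a control multi-peak domain met a butyrate multi-peak domain, the butyrate one was usually the wider. Among 736 nuclear pairs the median span was 3.0 kb in control and 4.83 kb after butyrate, and the median number of peaks was 2 and 3. The butyrate domain was wider in 494 pairs or 67.1% (63.6 to 70.5) and held more peaks in 433 or 58.8%. Pairs were formed by meeting, and wider butyrate domains are met more easily. Each control domain was paired with the met butyrate domain of most peaks, and the 297 that met single peaks only were left out. Both choices favour the butyrate side by construction.

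The 5 widest domains of each list and the 5 with the most peaks were then looked up by position, in the coordinates of the lists (UMD3.1 per the labels). In control, 4 of the 5 widest lay on chromosome 5. The widest of all lay on chromosome 15 from 53777873 to 53797408, a span of 19.5 kb with 6 control peaks and 2 butyrate H3K9me3 peaks, which lay between the control peaks and met none of them. It also held 3 control H3K27ac peaks and 3 control Pol II peaks, so this control domain of a repressive mark lay among active marks. Next came chromosome 5 from 81781710 to 81797719, with 7 control and 4 butyrate H3K9me3 peaks and 6 control Pol II peaks. On the same chromosome, the span from 19808546 to 19822915 held 7 control and 10 butyrate peaks. A domain on chromosome 9 from 7803335 to 7816576 had 7 control and 3 butyrate H3K9me3 peaks and no acetyl peak of either condition.

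The large butyrate domains had another setting. The widest lay on chromosome 18 from 59219308 to 59274576, where a span of 55.3 kb held 3 control and 27 butyrate peaks. Its neighbour in rank, on the same chromosome from 64695970 to 64742847, went from 1 peak to 26. Another pair on chromosome 18, from 60337975 to 60376236 and from 65541729 to 65580621, went from 2 to 27 peaks each. Across these 4 spans there were 2 control H3K27ac peaks and 1 butyrate H3K27ac peak, and no H3K9ac peak in either condition. The domain with the most peaks lay on chromosome 7 from 22070354 to 22115800, with 6 control peaks and 29 butyrate peaks, the latter filling 32.5% of a span of 45.4 kb. The domains on chromosome 5 stood apart in their company. From 37995487 to 38040172, 7 control and 23 butyrate H3K9me3 peaks shared a span of 44.7 kb with 10 control and 11 butyrate H3K27ac peaks, and from 78617295 to 78657333, 3 and 23 H3K9me3 peaks shared 40.04 kb with 2 and 6.

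**Figure D2:**
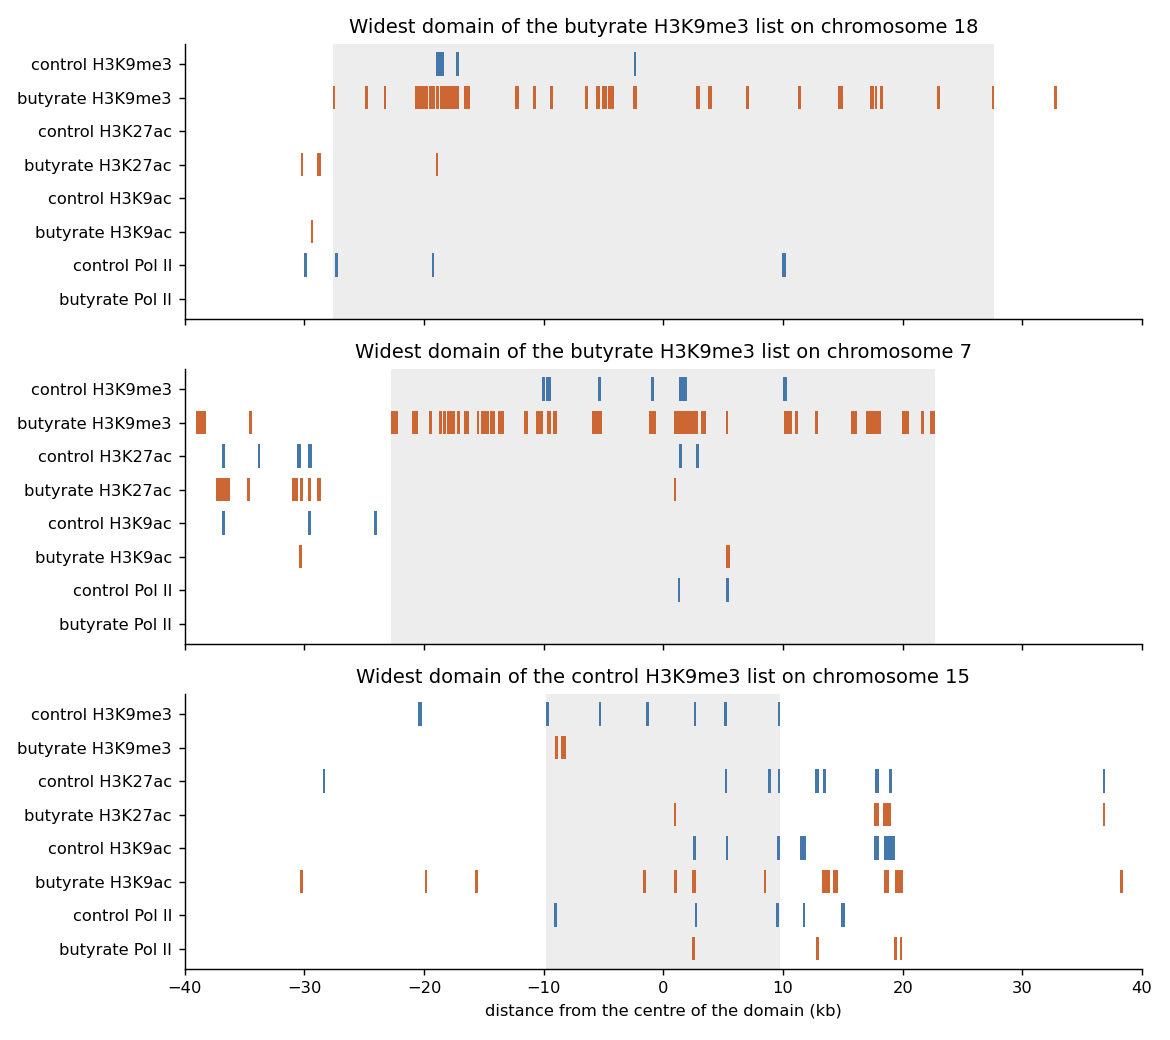
Peaks of the 8 lists (control in blue, butyrate in orange) by distance in kb from the centre of 3 domains, with the domain's span shaded. The chromosome 18 and 7 domains hold 27 and 29 butyrate H3K9me3 peaks with few peaks of other antibodies, and the chromosome 15 control domain holds 6 control H3K9me3 peaks among acetyl and Pol II peaks.

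The large butyrate domains were unevenly placed. Chromosome 18 held 38 of the 125 domains of 10 or more peaks, or 30.4% (22.5 to 39.3), against 3.77% of butyrate peaks, all of them between 39753138 and 65580621. Chromosome 5 held 24, chromosome 7 held 9, and chromosomes 14 and 17 held 8 each. No other chromosome had more than 6, and 8 nuclear chromosomes (4, 9, 12, 13, 20, 21, 23 and 27) and the X had none.

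By chromosome, clustering rose on all 30 nuclear chromosomes. The clustered share after butyrate ran from 40.6% on chromosome 4 to 68.5% on chromosome 14, with a median of 46.6%. Control shares ran from 9.27% on chromosome 27 to 46.7% on chromosome 5. Most control chromosomes lay close together, and without chromosomes 3, 5, 14, 15 and X the range was 9.27% to 19.8%. The chromosomes that stood out in control were 5 (46.7%), 14 (41.5%), 15 (30.1%), X (27.8%) and 3 (23.2%). On chromosome 5 the number of multi-peak domains rose from 817 to 1850 (log2 ratio 1.18), the smallest ratio, and on chromosome 27 it rose from 12 to 263 (4.45, 3.62 to 5.42), the largest. On chromosome 18 the share went from 19.8% (16.5 to 23.5) to 67.9% (66.3 to 69.5).

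**Figure D3:**
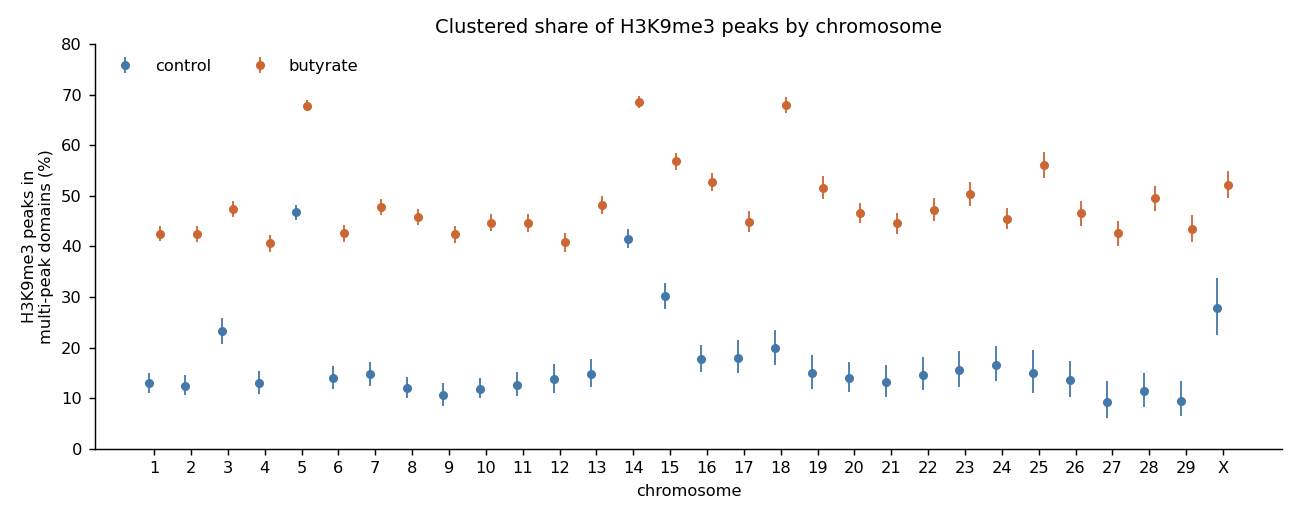
Share of H3K9me3 peaks in multi-peak domains (%) on each nuclear chromosome in control and butyrate, with exact binomial 95% intervals as bars. Butyrate shares lie between 40.6% and 68.5%, above control on every chromosome, and control shares stand out on chromosomes 5, 14, 15 and X.

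On chromosomes 5, 14 and 15 high control clustering came with high peak density, and the same stretches were dense in control Pol II. Over their whole length chromosome 3 and the X did not stand out for high density, with 9.30 and 1.71 control H3K9me3 peaks per Mb. The 10 Mb blocks of chromosome 3 from 10000001 to 30000000 held 16.1 and 18 per Mb. Chromosome 5 held 34.4 control H3K9me3 peaks per Mb and chromosome 14 held 31.4, where the other 27 autosomes had 5.63 to 14.2. Their butyrate values were 67.0 and 71.5, against 26.6 to 51.2 on the others. Control Pol II had 56.8 and 53.6 peaks per Mb on chromosomes 5 and 14, against 13.9 to 27.8 on the other autosomes, while control H3K27ac had 53.3 and 42.3 against 24.5 to 50.3. Chromosome 15 was dense over one stretch. From 30000001 to 60000000 its 10 Mb blocks held 24.1 to 26.5 control H3K9me3 peaks per Mb and 40.5 to 48.9 control Pol II peaks, whereas its first 30 Mb held 7.60 to 8.20 and 15.2 to 18.4. Within that stretch the log2 ratio of H3K9me3 peak number was 0.89 to 1.19 by block, against 2.04 to 2.21 before it. All lists were called against the same input, and why H3K9me3 and Pol II peaks were dense together was not tested.

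The positions of domains were then compared with acetylation. In control, 8.33% of single H3K9me3 peaks (7.95 to 8.73) overlapped an H3K27ac peak by at least 1 bp, and the share rose with domain size, to 12.8% of peaks in domains of 2, 16.0% in domains of 3 to 4 and 25.6% (20.01 to 31.7) in domains of 5 to 9. After butyrate no such rise was seen. The shares were 6.42% of single peaks (6.19 to 6.65), 5.26% in domains of 2, 4.75% in domains of 3 to 4, 6.39% in domains of 5 to 9 and 5.25% (4.26 to 6.38) in domains of 10 or more. The butyrate H3K27ac list was also the longer one, with 187475 peaks against 94617.

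Overlap with Pol II rose with domain size in control, from 8.92% of single H3K9me3 peaks (8.52 to 9.33) to 31.3% (25.3 to 37.7) of peaks in domains of 5 to 9. Chromosomes 5 and 14, dense in control Pol II, held 817 and 478 of the 2655 control multi-peak domains. Neither this rise nor that of H3K27ac overlap was computed without them. After butyrate the overlap with Pol II was lower in every size class that both lists held. It was 2.11% of single peaks (1.98 to 2.25), 2.20% in domains of 2, 2.65% (2.40 to 2.91) in domains of 3 to 4, 3.30% (2.88 to 3.77) in domains of 5 to 9 and 2.90% (2.17 to 3.79) in domains of 10 or more, a smaller rise. The butyrate Pol II list was the shorter one, with 31240 peaks against 56240 in control. Butyrate H3K9me3 domains also lay farther from acetylation. The median distance from a domain, single peaks included, to the nearest H3K27ac peak of its own condition was 17.1 kb in control and 39.3 kb after butyrate. Within the butyrate list this distance shortened with size, from 45.8 kb for single peaks to 1.94 kb for domains of 10 or more, which are also wider.

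The last comparison asked where H3K9me3 grew relative to the acetylated part of the control genome. Peaks were counted by their centre in 2677 windows of 1 Mb. H3K9me3 rose in 2628 windows, fell in 14 and was equal in 35, and the median window went from 7 to 30 peaks. The log2 ratio over all windows was 1.80. Windows were ranked by the number of control H3K27ac peaks and split into 5 quintiles. From the lowest quintile (0 to 4 H3K27ac peaks per window) to the highest (61 to 253), the log2 ratio of H3K9me3 was 2.43 (2.37 to 2.50), 2.20, 1.95, 1.64 and 1.38 (1.34 to 1.41). The highest quintile lay 1.06 below the lowest on the log2 scale (interval of the difference, -1.13 to -0.98). Poorly acetylated windows thus gained proportionally more H3K9me3 peaks.

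The gradient lay in the control list more than in the number gained. Median control H3K9me3 per window was 3, 5, 7, 10 and 12 peaks from the lowest to the highest quintile, and after butyrate it was 17, 29, 32, 34 and 36. The median gain was 13 peaks in the lowest quintile and 22, 24, 23 and 23 in the others. In control, the highest quintile held 32.5% of H3K9me3 peaks and the lowest 7.95%. After butyrate these shares were 24.2% and 12.3%, so the marked landscape became flatter without turning round.

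For single windows the ratio was taken with 1 added to both counts. Across windows, 371 of 2677 (13.9%) had a ratio at least 2 times that of all windows, and 250 (9.34%) had a ratio at most 1/2 of it. The first kind made up 25.2% of windows in the lowest quintile (21.6 to 29.1) and 2.80% in the highest (1.57 to 4.57). The second kind made up 6.73% (4.76 to 9.19) and 19.8% (16.5 to 23.4). In the lowest quintile the control median was 3 and 79 of 535 windows held no control peak, against 12 and 3 of 536 in the highest. Ratios of small counts scatter more, so these shares also depend on control number. The number of multi-peak domains followed the same gradient more steeply. Their log2 ratio was 4.09 (3.79 to 4.41) in the lowest quintile, from 93 to 1583 domains, and 2.03 (1.93 to 2.13) in the highest, from 1054 to 4304. Domains join these same peaks, and where peaks are sparse, domain number grows faster than peak number by construction. The steeper fall is therefore not a separate result. Domains of 10 or more peaks were absent from the lowest quintile after butyrate and numbered 32, 21, 36 and 36 in the others, so the largest domains were not in the windows that were poorest in acetylation.

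**Figure D4:**
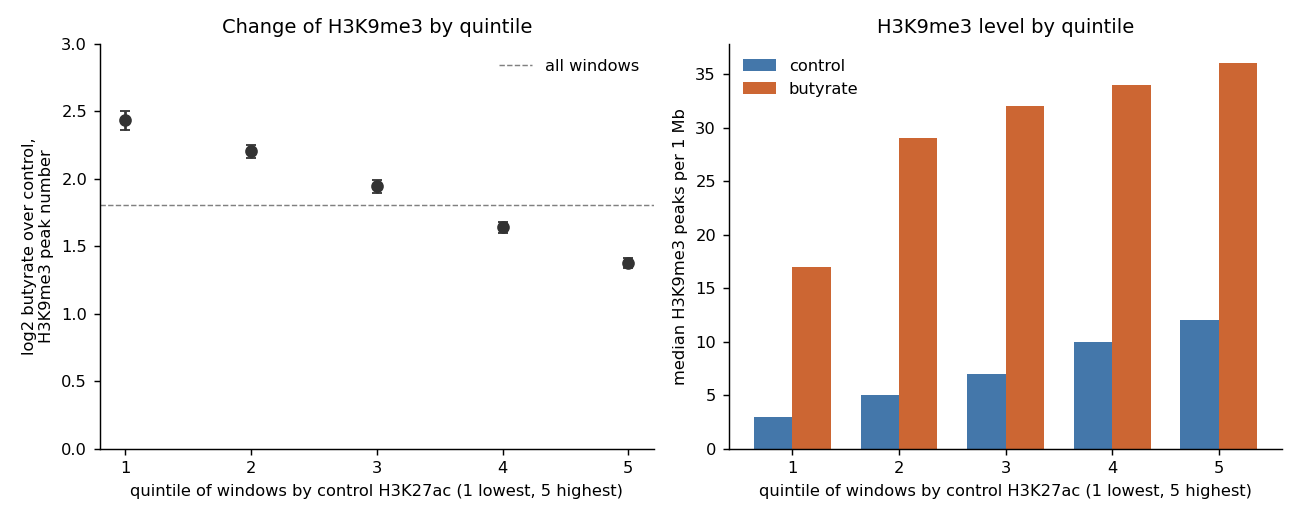
Left, log2 ratio of H3K9me3 peak number, butyrate over control, in quintiles of 1 Mb windows ranked by control H3K27ac, with exact 95% intervals and the ratio of all windows dashed; right, median H3K9me3 peaks per window in each quintile. The ratio falls from 2.43 to 1.38 while control medians rise from 3 to 12 and butyrate medians from 17 to 36.

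As a description over the 2677 windows, control H3K27ac had a Spearman rho of -0.31 with the log2 change of H3K9me3, of 0.60 with control H3K9me3 and of 0.37 with butyrate H3K9me3. Control H3K9me3 also had a rho of 0.81 with control Pol II, against 0.45 between the butyrate lists of both. The control list of this repressive mark was thus dense where control Pol II was dense. Acetylation followed it less evenly. By autosome, rho of control H3K9me3 with control H3K27ac ran from 0.29 on chromosome 14 to 0.81 on chromosome 6, with 0.33 on chromosome 5. Windows share their library, input, depth and base composition, so these values carry no test. On each of the 29 autosomes rho with the change was below 0, from -0.54 on chromosome 18 to -0.14 on chromosome 20. On the X it was 0.36, over 149 windows of which many held no control H3K9me3 peak. In 3 equal classes of the X windows, from low to high control H3K27ac, the log2 ratio was 2.69 (2.09 to 3.35), 2.20 (1.95 to 2.46) and 2.82 (2.46 to 3.20), with no fall. Without the X the difference between the highest and lowest quintile was -1.05.

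Since control H3K9me3 rose with H3K27ac and is also the denominator of the ratio, windows of like control H3K9me3 number were compared. Among windows with 1 to 3 control peaks the log2 ratio was 3.24 (3.13 to 3.34) in the lowest 2 quintiles of H3K27ac and 3.14 (2.83 to 3.46) in the highest 2. With 4 to 6 control peaks it was 2.45 (2.37 to 2.53) and 2.46 (2.35 to 2.57), and with 7 to 9 it was 2.05 (1.96 to 2.15) and 1.96 (1.88 to 2.03). In these windows acetylation made little difference. At 10 to 14 control peaks the values were 1.83 (1.71 to 1.95) and 1.64 (1.59 to 1.70), at 15 to 24 they were 2.14 (2.00 to 2.29) and 1.29 (1.24 to 1.35), and at 25 or more 1.27 (1.18 to 1.37) and 0.91 (0.86 to 0.96). The difference between the acetylation groups at like control count was therefore found in windows already rich in H3K9me3. There the poorly acetylated group counted 66, 26 and 40 windows. These groups were not matched by chromosome. Control H3K9me3 had 34.4 and 31.4 peaks per Mb on chromosomes 5 and 14, against 5.63 to 14.2 on the other 27 autosomes. Whether the difference at like control count held within chromosomes was not tested.

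Windows were named by a fixed rule. In the highest quintile the largest rise in number was on chromosome 1 from 149000001 to 150000000, from 16 to 134 peaks, where H3K27ac fell from 86 to 66. The next were chromosome 5 from 78000001 to 79000000 (59 to 153) and chromosome 2 from 115000001 to 116000000 (13 to 101), where H3K27ac rose from 98 to 141 and from 91 to 145. In the lowest quintile the largest rises were on the X from 147000001 to 148000000 (2 to 102), chromosome 14 from 80000001 to 81000000 (18 to 113) and chromosome 19 from 60000001 to 61000000 (2 to 97). These 3 windows held at most 5 H3K27ac peaks in either condition.

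Among windows with 10 or more control peaks, the 3 with the lowest ratio all lay in the highest quintile. They were chromosome 15 from 53000001 to 54000000 (44 to 33 peaks), chromosome 21 from 22000001 to 23000000 (12 to 9) and chromosome 5 from 112000001 to 113000000 (22 to 17). H3K27ac rose in each, from 97 to 189, from 101 to 235 and from 128 to 298. The widest control domain described above lay in the first of them.

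Several of the named windows lay near the distal end of their chromosome, and a division by distance from that end was added after the values were seen. Cattle autosomes are acrocentric, with the centromere by convention at the start of the coordinates. The end was taken as the last window with a peak in any of the 8 lists. On the 29 autosomes the log2 ratio was 2.77 (2.66 to 2.89) in the last 5 Mb, 2.35 (2.26 to 2.44) at 5 to 10 Mb, 2.00 (1.94 to 2.07) at 10 to 20 Mb, 1.72 (1.67 to 1.76) at 20 to 40 Mb and 1.66 (1.63 to 1.69) farther in. Distal windows started lower and ended level with the rest, with a median of 4 control and 29 butyrate peaks in the last 5 Mb against 8 and 30 beyond 40 Mb. From the proximal end the values were 2.19 (2.09 to 2.30) in the first 5 Mb, 2.03 at 5 to 10 Mb and 1.73 to 1.78 farther in, a smaller rise.

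The distal excess was spread over chromosomes. In the last 10 Mb the log2 ratio was higher than in the rest of the chromosome on 28 of 29 autosomes, with a median difference of 0.75. The exception was chromosome 25 (2.21 against 2.27), and the largest difference was on chromosome 9, with 3.42 (2.97 to 3.91) against 1.89 (1.77 to 2.00). On 18 of the 29 the intervals of both values lay apart. On the X the ratio was 3.68 (3.17 to 4.24) in the last 10 Mb and 2.13 (1.92 to 2.34) in the rest. Both gradients were present together on the autosomes. From the lowest to the highest quintile of control H3K27ac the ratio fell from 3.05 to 1.82 within the last 10 Mb and from 2.34 to 1.35 in the rest. Neither division was matched here by control H3K9me3 number. That number is the denominator of the ratio, and it was lower both in distal windows and in poorly acetylated ones. The log2 ratio of H3K27ac was 0.88 in the last 5 Mb and 0.96 beyond 40 Mb, and that of Pol II was -0.59 and -0.95. Their part in the distal values was not tested.

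**Figure D5:**
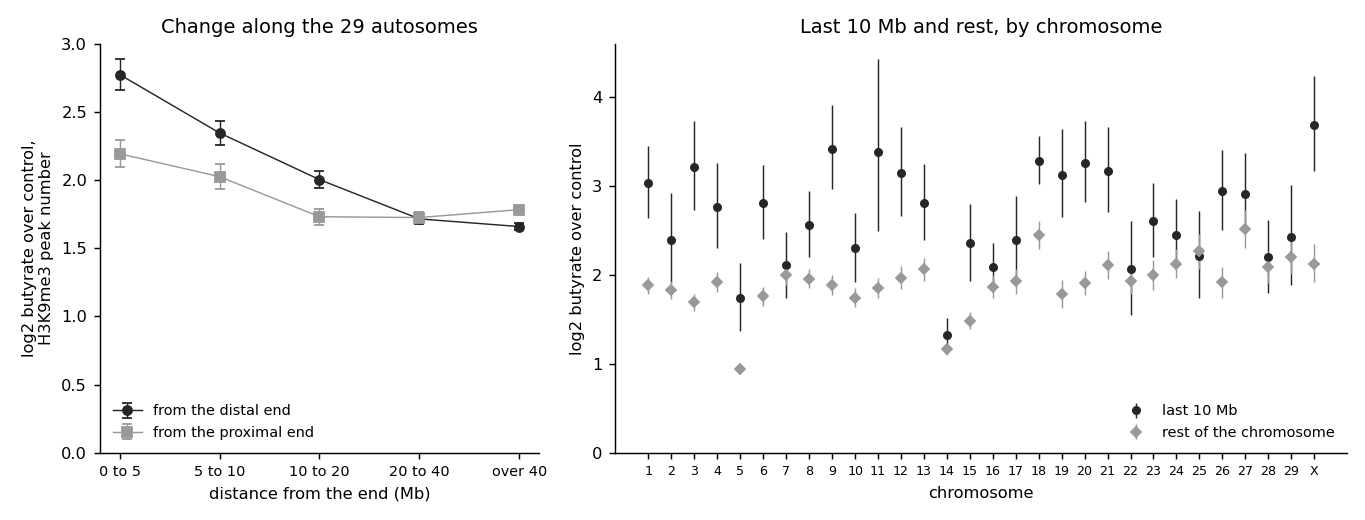
Log2 ratio of H3K9me3 peak number, butyrate over control, with exact 95% intervals: left, over the 29 autosomes by distance in Mb from the distal or the proximal end; right, in the last 10 Mb and in the rest of each chromosome. The ratio falls from 2.77 to 1.66 away from the distal end, and the last 10 Mb lie above the rest on every chromosome plotted other than 25.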

How the data were processed

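The members and lists were chosen with earlier results of these data known. Per the study's methods, the authors removed 75 nt reads that failed the instrument's quality filter, aligned the rest to the cattle assembly with BWA, kept uniquely placed reads, and called peaks per library with MACS2 at default settings against the MDBK input. The submitters' processing notes name UMD3.1 and also list Trim Galore 0.4.1, with no role given. Default settings call narrow peaks, which split broad marks into short pieces. The deposited lists hold chromosome, start and end positions in base pairs, with no score, so no stricter threshold other than length could be set. Starts were taken to be 0-based and are printed with 1 added. Were they 1-based, lengths would be 1 bp too low and printed starts 1 bp too high. No genome or annotation of this build was used, so no genes or sequences are given.

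Domains join peaks under 5 kb apart, per list. Overlap means at least 1 bp. Peaks were assigned to 1 Mb windows by centre, and the mitochondrial genome was left out of windows. Counts have exact Poisson, shares Clopper-Pearson, log2 ratios exact binomial and medians order-statistic intervals. The interval of the difference between quintiles is that of the conditional odds ratio. Log2 ratios of single windows, also in correlations, had 1 added to both counts. Regions named are, per list, the 5 nuclear domains of largest span and the 5 with most peaks, the 3 windows of largest rise in the highest and in the lowest quintile, and the 3 of lowest ratio among those with 10 or more control peaks. Joining, windows and overlap were tested on simulated data. Alternatives were other joining distances, window sizes, rankings, length minima and lists of equal number. The tools were matplotlib 3.10.9, scipy 1.17.1, numpy 2.4.6 and Python 3.11.15.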

Additional observations from a re-analysis of the deposited data

How the results depend on the processing

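No paired analysis was possible because there was 1 library per condition. Of 40 values under other settings, 7 lay within the narrow 95% interval of the reported value, 29 lay outside it with the same direction and 4 changed sign. The sign changes came with the 2 ways of equalising number and with the scaled joining distance. Even thinning gave -19.2 percentage points for the clustered share and -2.44 for log2 domain number, the longest peaks gave -0.063 for log2 median span, and the scaled joining distance gave -1.17 for it.

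The clustered share difference was 14.8 points with joining at 1 kb, 30.9 at 20 kb, 30.8 without chromosomes 5, 14 and 18, 23.2 in peaks of at least 300 bp, 8.88 with the longest peaks and 4.02 with scaled joining. In the same order, log2 domain number was 3.19, 1.95, 3.28, 4.33, 0.31 and 1.96. Log2 median span was 0.22 with joining at 1 kb, 0.27 at 20 kb and 0.54 after even thinning. Control domains met by butyrate were 41.2% with joining at 1 kb, 31.2% without chromosomes 5, 14 and 18, 34.6% in peaks of at least 300 bp, 21.7% with the longest peaks, 15.1% after even thinning and 10.8% at 50% coverage.

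The difference between the highest and lowest quintile kept its sign throughout. It was -1.18 in windows of 500 kb, -0.87 in windows of 2 Mb, -0.94 in covered bases, -0.88 ranked by butyrate H3K27ac, -0.94 ranked by control H3K9ac, -0.97 without chromosomes 5, 14 and 18, -0.88 in peaks of at least 300 bp and -1.21 with domains counted in place of peaks. The alternatives without the X (-1.05) and without the last 10 Mb of each chromosome (-0.996) were chosen after seeing the data. Except where equal numbers or fewer regions set the value by construction, the cause of these moves was not tested. Depth was not used, so a deeper library cannot be told apart from more H3K9me3.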

Other observations

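The change of H3K9me3 in a 1 Mb window bore little relation to the change of the other antibodies. Over 2677 windows, as a description with no test, the Spearman rho of its log2 change was -0.07 with that of H3K27ac, 0.03 with that of H3K9ac and -0.13 with that of Pol II. On the autosomes without chromosomes 5, 14 and 18 these values were -0.13, -0.01 and -0.16. Windows share libraries, input, depth and base composition.

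The mitochondrial genome, which carries no histones, held 5 control and 9 butyrate H3K9me3 peaks, which covered 91.8% and 90.2% of the stretch up to its last peak. In the other 6 lists the covered share was 51.5% to 82.1%.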
